A study of Homo sapiens with 16 samples.

Results

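The 10 genes described here encode dual specificity MAP kinase phosphatases: DUSP1, DUSP2, DUSP4, DUSP5, DUSP6, DUSP7, DUSP8, DUSP10, DUSP14 and DUSP16. They were picked by gene symbol from a deposited table of 61806 genes, and all 10 were found there. All 10 also passed the filter on low counts, which kept 16029 genes for testing, although DUSP2 passed with 3 to 17 counts per library. Their transcripts were measured in the human cell line LX-2, which was immortalised from hepatic stellate cells. Stellate cells are the main source of scar collagen in the injured liver. The 16 poly(A) RNA libraries form 4 groups of 4 biological replicates, all grown in a reduced-serum medium for 24 h before treatment. The WT group is unedited LX-2 given PBS, and the TWEAK group is unedited LX-2 given 100 ng/mL of TWEAK, the TNF family ligand of the receptor Fn14, for 2 h. The Fn14alpha KO group lacks the Fn14alpha isoform and the Fn14 KO group lacks total Fn14, both after CRISPR/Cas9 editing and both given PBS. The series concerns an Fn14 isoform that is active without TWEAK, and no knockout cells were treated with TWEAK here. The labels do not state if a knockout line came from 1 clone, so the edited gene and the history of each line cannot be told apart. No protein or phosphorylation was measured.

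MAP kinases are switched on when a kinase adds phosphate to a threonine and a neighbouring tyrosine, and the dual specificity MAP kinase phosphatases switch them off by removing both. The family has a nuclear, inducible class (DUSP1, DUSP2, DUSP4 and DUSP5), a cytoplasmic class selective for ERK (DUSP6 and DUSP7) and a class that prefers the stress kinases JNK and p38 (DUSP8, DUSP10 and DUSP16), while DUSP14 is a small atypical enzyme without the MAP kinase binding domain of the others. Several of the genes are themselves transcribed in response to MAP kinase activity, which makes them negative feedback regulators and makes their transcripts a common readout of the pathway, and TWEAK binding to Fn14 is known to engage MAP kinases as well as NF-kB.

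RefSeq promoters (GRCh38.p14, from 250 bases before to 50 bases after the start site) were matched for 8 of the 10 genes, with 9 promoters in all. They were searched on both strands for the AP-1 site TGANTCA, the cyclic AMP response element TGACGTCA, the NF-kB site GGNNTTNCC and the ETS site CCGGAAG. The response element was present in the promoters of DUSP1 and DUSP8, against 1.85% of all 35116 promoters, and the NF-kB letters were present in those of DUSP2 and DUSP6, against 17.1%. The AP-1 and ETS letters, held by 7.71% and 10.3% of all promoters, were not in these windows. The stretches from 160 to 41 bases before the start site of 3 genes are shown, all on the minus strand (chr5:172771236-172771355 for DUSP1, chr11:1572312-1572431 for DUSP8 and chr12:89352542-89352661 for DUSP6). They are shown because DUSP1 and DUSP8 carry the same element and moved in opposite directions in the Fn14 KO libraries, and because DUSP6 is the standard ERK feedback gene, a choice made after the values were seen. Capitals mark the response element in DUSP1 and DUSP8 and the NF-kB letters in DUSP6.
DUSP1: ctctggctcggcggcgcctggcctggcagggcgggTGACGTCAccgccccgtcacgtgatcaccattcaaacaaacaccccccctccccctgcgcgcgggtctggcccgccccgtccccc
DUSP8: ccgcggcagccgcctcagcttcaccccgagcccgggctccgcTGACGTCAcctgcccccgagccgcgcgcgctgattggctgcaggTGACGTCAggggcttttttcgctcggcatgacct
DUSP6: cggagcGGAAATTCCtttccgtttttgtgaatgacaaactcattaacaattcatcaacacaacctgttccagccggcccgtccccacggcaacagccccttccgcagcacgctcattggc
Counted from the start site, the DUSP1 match begins at −125, the DUSP8 matches at −118 and −74, and the DUSP6 match at −154. A match is a run of letters and was not tested as a binding site.

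Total counts ran from 13335919 to 16888606 per library. Replicates of a group differed by more than sampling noise in all 24 pairs, with a chi-square per degree of freedom of 2.30 to 39.0 over genes with at least 100 counts. WT replicate 4 and Fn14 KO replicate 1 stood apart from their groups on the third principal component, and the results below are given without them where that matters. TNFRSF12A, which encodes Fn14, stood at 119.05 to 133.38 FPKM in WT, at 51.83 to 64.73 in Fn14alpha KO and at 29.51 to 35.55 in Fn14 KO, so the labelled gene was lower in all 8 knockout libraries, on counts that do not tell its isoforms apart. Summed stellate cell markers were at 787 to 830 FPKM in WT and summed hepatocyte, endothelial, cholangiocyte and leukocyte markers at no more than 3.14 FPKM in any group, although LRAT, a marker of quiescent stellate cells, was at or near 0 throughout. The stellate marker sum was 980 to 1054 FPKM with TWEAK, 646 to 660 in Fn14alpha KO and 1166 to 1247 in Fn14 KO, and its part in the results below was not tested. VIM alone had a mean of 378 FPKM in WT, 612 with TWEAK, 259 in Fn14alpha KO and 447 in Fn14 KO. By mean FPKM the markers went both ways against WT. With TWEAK, THY1 was higher too, but COL1A1 and COL3A1 were lower. In Fn14alpha KO, TAGLN and LOX were higher and COL3A1 lower. In Fn14 KO, COL1A1 and SPARC were higher and COL3A1 and HAND2 lower.

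Levels are given in FPKM, which is corrected for exonic length and can be compared between genes. Differences are log2 fold changes with their standard error (SE) from edgeR's quasi-likelihood fit to the counts. A gene was called where the p-value, adjusted by Benjamini and Hochberg over all 16029 genes, was under 0.05. FPKM is scaled to the library total, whereas edgeR also applied TMM factors of 0.939 to 1.05, with the lowest in Fn14 KO and the highest in Fn14alpha KO. The median log2 fold change of all genes between the knockout lines was −0.15 on total counts, and the sign of small differences there depended on the scaling.

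With TWEAK for 2 h, 1 of the 10 phosphatase genes was called, DUSP5, which rose. Across all genes 6.87% were called, 4.82% higher and 2.05% lower. No phosphatase gene was called lower by edgeR, and the count was 0 also at an unadjusted p under 0.05, with DESeq2 and with limma. The median log2 fold change was 0.15 over the 10 genes and −0.01 over all genes tested. In Fn14alpha KO against WT, 4 of the 10 genes were called higher (DUSP1, DUSP4, DUSP7 and DUSP14) and 4 lower (DUSP5, DUSP6, DUSP10 and DUSP16). Across all genes 42.2% were called, 20.0% higher and 22.2% lower. In Fn14 KO against WT, 4 were called higher (DUSP1, DUSP4, DUSP7 and DUSP14) and 3 lower (DUSP6, DUSP8 and DUSP16), where 52.9% of all genes were called, 26.6% higher and 26.3% lower. Between the knockout lines, 3 were higher in Fn14 KO (DUSP4, DUSP10 and DUSP14) and 2 lower (DUSP8 and DUSP16), where 59.2% of all genes were called, 30.7% higher and 28.5% lower. The median size of the difference, regardless of sign, was 0.51 over the 10 genes and 0.26 over all genes in Fn14alpha KO, and 0.61 and 0.33 in Fn14 KO. The 2 values lay closer together with TWEAK (0.15 and 0.13) and between the knockout lines (0.47 and 0.39). The TWEAK and both knockout comparisons share the 4 WT libraries. In bulk RNA, fewer cells that express a gene and less of its RNA per cell cannot be told apart.

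**Figure D1:**
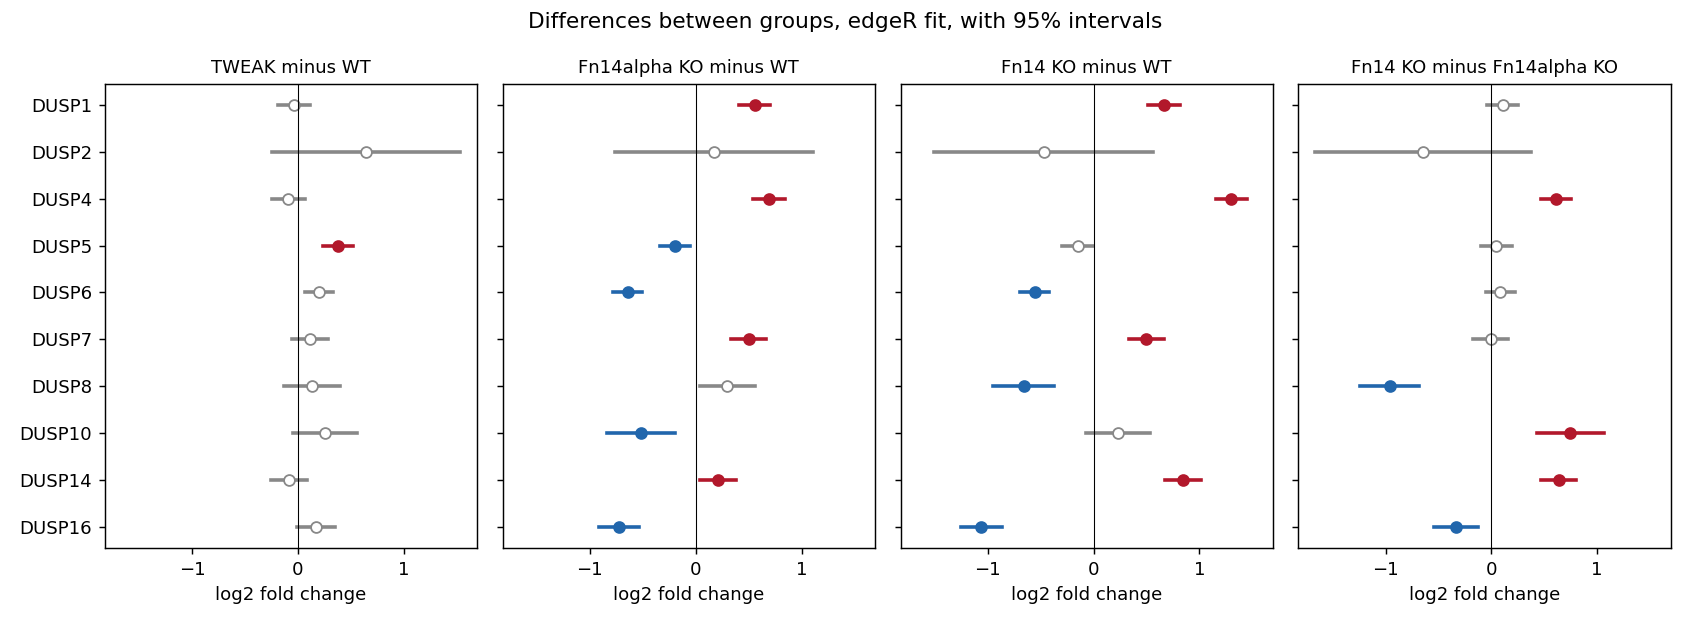
Log2 fold change of each phosphatase gene (horizontal axis) in 4 comparisons, with 95% intervals from the edgeR fit. Filled red and blue points were called higher and lower, and open points were not called. DUSP5 is the only filled point with TWEAK, and DUSP4 lies farthest to the right in Fn14 KO minus WT at 1.30.

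In WT the order of mean levels was DUSP5 at 29.3, DUSP1 at 25.2, DUSP6 at 23.5, DUSP14 at 12.4, DUSP7 at 10.5, DUSP4 at 3.30, DUSP16 at 3.11, DUSP10 at 2.34, DUSP8 at 1.19 and DUSP2 at 0.230 FPKM. The libraries of DUSP14 and DUSP7 overlapped only narrowly, since the highest DUSP7 library (11.75) exceeded the lowest of DUSP14 (11.58), and those of DUSP4 and DUSP16 overlapped broadly, while no other neighbours in this order overlapped. DUSP5 remained first with TWEAK. In both knockout lines DUSP1 was first, at 37.95 FPKM in Fn14alpha KO and 36.9 in Fn14 KO, with DUSP5 second at 26.1 and 24.3. DUSP14 moved from the fourth place in WT to the third in Fn14 KO, ahead of DUSP6, and in Fn14alpha KO the means of DUSP6, DUSP7 and DUSP14 lay between 14.6 and 15.4 with overlapping libraries.

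**Figure D2:**
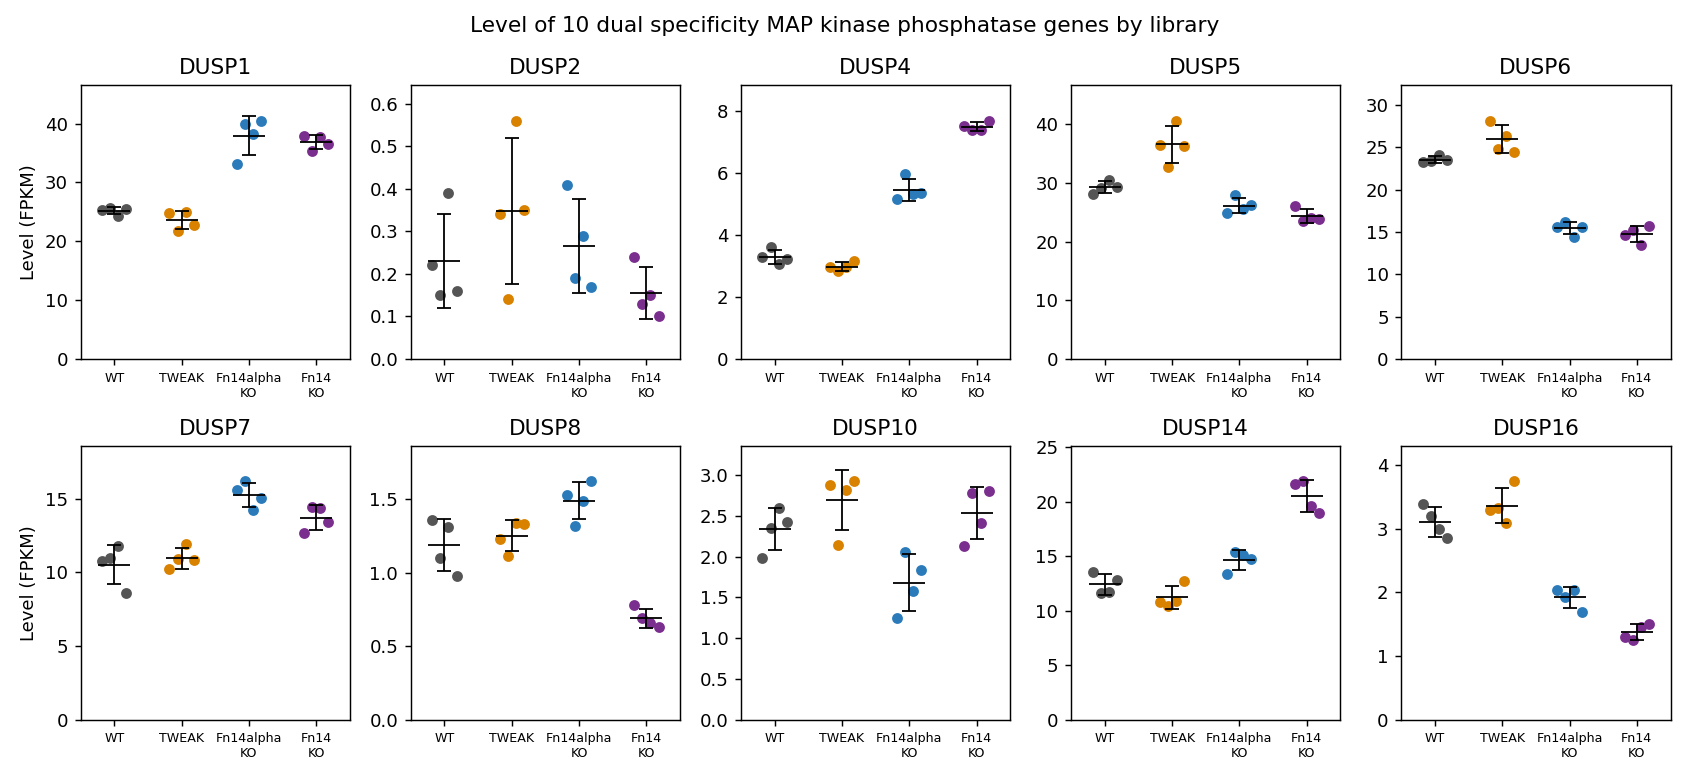
Level in FPKM (vertical axis, from 0, with its own range for each gene) of the 10 genes in each of the 16 libraries by group. Points are libraries and lines are the mean and SD of 4. The knockout libraries of DUSP1, DUSP4, DUSP5, DUSP6, DUSP7 and DUSP16 do not overlap those of WT, and DUSP2 stays below 0.6 FPKM in every library. The share of all genes without such overlap was not counted, while 42.2% were called in Fn14alpha KO and 52.9% in Fn14 KO. DUSP5 in Fn14 KO was not called (edgeR adjusted p = 0.0783).

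Among the nuclear, inducible phosphatases, DUSP5 (ENSG00000138166, GRCh38 chromosome 10, 110497907 to 110511533, plus strand), which inactivates ERK in the nucleus and anchors it there, was the gene called with TWEAK. Its WT libraries were at 28.08, 29.08, 30.55 and 29.30 FPKM and its TWEAK libraries at 36.51, 32.77, 40.58 and 36.29. All 4 treated libraries lay above all 4 WT libraries. The rise was 1.30-fold (log2 fold change 0.38 ± 0.07 SE, n = 4 against 4, edgeR adjusted p = 6.541e-04). Over 18 alternative settings, from scaling and tool to leaving out single libraries, it stayed between 0.31 and 0.44 with an adjusted p of 5.790e-06 to 0.00603.

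DUSP5 stood lower in the untreated knockout lines. Its Fn14alpha KO libraries were at 24.83, 27.85, 25.58 and 26.22 FPKM and its Fn14 KO libraries at 26.09, 23.43, 23.93 and 23.88. Every knockout library lay below the lowest WT library. The log2 fold change was −0.20 ± 0.07 SE in Fn14alpha KO (edgeR adjusted p = 0.0271), a call lost without WT replicate 3, without Fn14alpha KO replicate 1, 3 or 4, on total counts and without the low-count filter (adjusted p 0.0183 to 0.0854 over all settings). In Fn14 KO it was −0.15 ± 0.07 SE and was not called (edgeR adjusted p = 0.0783). That value passed without Fn14 KO replicate 1 (−0.19), without that library and WT replicate 4 (−0.18), on total counts (−0.27) and in both limma fits (−0.26 and −0.27), and was 0.02 after removal of the median of its neighbours. Between the knockout lines DUSP5 differed by 0.05, with a 95% interval from −0.10 to 0.19. It was called higher in Fn14 KO there after removal of the median of its neighbours, at 0.21 (edgeR adjusted p = 0.0153), and was at −0.10 on total counts.

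DUSP1 (ENSG00000120129, chromosome 5, 172768096 to 172771195, minus strand), the immediate early phosphatase that prefers p38 and JNK, was higher in both knockout lines. Its WT libraries were at 25.30, 25.65, 24.32 and 25.48 FPKM and its TWEAK libraries at 24.83, 21.82, 24.92 and 22.80. The 2 groups of unedited cells overlapped. The Fn14alpha KO libraries were at 33.12, 39.98, 38.23 and 40.48 FPKM and the Fn14 KO libraries at 37.80, 35.34, 37.72 and 36.56, all above every unedited library. DUSP1 was 1.47-fold higher in Fn14alpha KO (log2 fold change 0.56 ± 0.07 SE, edgeR adjusted p = 8.053e-07) and 1.59-fold higher in Fn14 KO (0.67 ± 0.07 SE, edgeR adjusted p = 2.821e-08). After TWEAK the log2 fold change was −0.04 with a 95% interval from −0.18 to 0.11 (edgeR adjusted p = 0.823), and it turned to 0.01 without TWEAK replicate 2. Between the knockout lines it was 0.11 (interval −0.04 to 0.25, edgeR adjusted p = 0.195) and changed sign with the scaling. After removal of the median of its neighbours, described below, it was −0.25 there and was called lower in Fn14 KO (edgeR adjusted p = 0.00532).

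DUSP4 (ENSG00000120875, chromosome 8, 29333064 to 29350684, minus strand), a nuclear phosphatase that acts on ERK, JNK and p38, varied most over the 4 groups among the members with at least 2 FPKM in a group, with an SD of 0.65 over group means of log2 CPM. It stood at 3.29, 3.61, 3.06 and 3.24 FPKM in WT and at 2.96, 2.83, 2.97 and 3.17 with TWEAK. In Fn14alpha KO it stood at 5.17, 5.97, 5.32 and 5.35 FPKM, and in Fn14 KO at 7.53, 7.40, 7.41 and 7.70. The unedited groups overlapped each other, and the 3 levels of unedited, Fn14alpha KO and Fn14 KO cells were separated without overlap. DUSP4 rose 1.61-fold in Fn14alpha KO (log2 fold change 0.69 ± 0.07 SE, edgeR adjusted p = 4.446e-08) and 2.46-fold in Fn14 KO (1.30 ± 0.07 SE, edgeR adjusted p = 2.456e-13). It was 1.53-fold higher in Fn14 KO than in Fn14alpha KO (0.61 ± 0.07 SE, edgeR adjusted p = 6.693e-08). These 3 calls were kept in all 18 settings, with ranges of 0.59 to 0.73, 0.99 to 1.34 and 0.40 to 0.66. With TWEAK the log2 fold change was −0.09 (interval −0.25 to 0.07, edgeR adjusted p = 0.531).

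DUSP2 (ENSG00000158050, chromosome 2, 96143169 to 96145440, minus strand), a nuclear phosphatase known mainly from activated immune cells, was close to the limit of detection. Its lowest and highest libraries were 0.15 and 0.39 FPKM in WT, 0.14 and 0.56 with TWEAK, 0.17 and 0.41 in Fn14alpha KO, and 0.10 and 0.24 in Fn14 KO. All 4 groups overlapped and no comparison was called. The intervals were wide, from −0.24 to 1.53 with TWEAK and from −1.51 to 0.56 in Fn14 KO, so smaller changes of DUSP2 were not detectable at this depth.

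In the cytoplasmic class, DUSP6 was called lower and DUSP7 higher in both knockout lines. After removal of the median of neighbouring genes, described below, 3 of these 4 calls were lost, and only that of DUSP6 in Fn14 KO was kept. DUSP6 (ENSG00000139318, chromosome 12, 89347235 to 89352501, minus strand), the ERK-selective phosphatase that is a standard transcript of ERK feedback, stood at 23.20, 23.37, 24.10 and 23.50 FPKM in WT and at 28.13, 24.81, 26.36 and 24.48 with TWEAK. It stood at 15.57, 16.12, 14.46 and 15.54 FPKM in Fn14alpha KO and at 14.60, 15.22, 13.50 and 15.67 in Fn14 KO. The knockout libraries overlapped each other and lay below all 8 unedited libraries. DUSP6 fell to 64.0% of WT in Fn14alpha KO (log2 fold change −0.64 ± 0.07 SE, edgeR adjusted p = 2.661e-08) and to 67.9% in Fn14 KO (−0.56 ± 0.07 SE, edgeR adjusted p = 1.283e-07). Between the knockout lines the difference was 0.09 (interval −0.05 to 0.22, edgeR adjusted p = 0.280), and it changed sign on total counts.

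With TWEAK, all 4 DUSP6 libraries lay above the 4 WT libraries. The difference was small, with a log2 fold change of 0.20 ± 0.06 SE, and missed the threshold (edgeR adjusted p = 0.0641). It passed with DESeq2, after removal of the median of its neighbours, and without WT replicate 4 together with Fn14 KO replicate 1, with adjusted p-values between 0.0251 and 0.207 in the 18 settings.

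DUSP7 (ENSG00000164086, chromosome 3, 52048919 to 52056571, minus strand), a close relative of DUSP6 that also acts on ERK, stood at 10.76, 11.00, 11.75 and 8.60 FPKM in WT and at 10.20, 10.90, 11.89 and 10.83 with TWEAK. It stood at 15.58, 16.16, 14.19 and 15.06 FPKM in Fn14alpha KO and at 12.67, 14.41, 14.33 and 13.41 in Fn14 KO. WT replicate 4 was the lowest library, and all knockout libraries lay above all unedited ones. DUSP7 was 1.42-fold higher in Fn14alpha KO (log2 fold change 0.50 ± 0.08 SE, edgeR adjusted p = 1.925e-05) and 1.41-fold higher in Fn14 KO (0.50 ± 0.08 SE, edgeR adjusted p = 1.280e-05). Between the knockout lines the difference was within the interval −0.17 to 0.16 (edgeR adjusted p = 0.967), but it was −0.25 after removal of the median of its neighbours and was then called (edgeR adjusted p = 0.0126). With TWEAK it was 0.12 ± 0.08 SE and was not called (edgeR adjusted p = 0.442), and without WT replicate 4 it was 0.03.

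Of the phosphatases that prefer JNK and p38, DUSP16 was lower in both knockout lines, while DUSP8 and DUSP10 differed between the lines in opposite directions. DUSP16 (ENSG00000111266, chromosome 12, 12473282 to 12562863, minus strand), which acts on JNK and shuttles between nucleus and cytoplasm, stood at 3.39, 3.19, 2.99 and 2.86 FPKM in WT and at 3.29, 3.33, 3.08 and 3.74 with TWEAK. It stood at 2.03, 1.93, 2.03 and 1.69 FPKM in Fn14alpha KO and at 1.30, 1.25, 1.46 and 1.50 in Fn14 KO. The unedited groups overlapped, and the 3 levels of unedited, Fn14alpha KO and Fn14 KO cells did not, in the reverse order of DUSP4. DUSP16 fell to 60.5% of WT in Fn14alpha KO (log2 fold change −0.72 ± 0.09 SE, edgeR adjusted p = 7.709e-07) and to 48.0% in Fn14 KO (−1.06 ± 0.09 SE, edgeR adjusted p = 1.459e-09). It was lower in Fn14 KO than in Fn14alpha KO by a log2 fold change of −0.33 ± 0.10 SE (edgeR adjusted p = 0.00555). With TWEAK the value was 0.17 ± 0.09 SE (edgeR adjusted p = 0.277).

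DUSP8 (ENSG00000184545, chromosome 11, 1554051 to 1572271, minus strand), a phosphatase of JNK and p38, stood at 1.36, 1.10, 1.31 and 0.98 FPKM in WT and at 1.23, 1.11, 1.34 and 1.33 with TWEAK. It stood at 1.53, 1.32, 1.49 and 1.62 FPKM in Fn14alpha KO and at 0.78, 0.69, 0.66 and 0.63 in Fn14 KO. The Fn14 KO libraries lay below all others, while the other 3 groups overlapped. DUSP8 fell to 63.3% of WT in Fn14 KO (log2 fold change −0.66 ± 0.14 SE, edgeR adjusted p = 2.902e-04). In Fn14alpha KO the value was 0.30 ± 0.13 SE and missed the threshold (edgeR adjusted p = 0.0589). It passed in 6 of 18 settings, among them without WT replicate 1, without WT replicate 3 and without Fn14alpha KO replicate 2 (adjusted p 0.0230 to 0.337 over all). The knockout lines differed by −0.96 ± 0.14 SE (edgeR adjusted p = 1.696e-06). Reads that also match DUSP8P5, a pseudogene with at most 19 counts per library against 46 to 120 for DUSP8, may have been assigned to either gene.

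DUSP10 (ENSG00000143507, chromosome 1, 221701424 to 221742089, minus strand), which acts on p38 and JNK, showed the opposite order. It stood at 1.98, 2.35, 2.60 and 2.42 FPKM in WT, at 2.88, 2.14, 2.81 and 2.92 with TWEAK, at 1.25, 2.06, 1.58 and 1.83 in Fn14alpha KO and at 2.13, 2.78, 2.41 and 2.80 in Fn14 KO. Fn14alpha KO held the lowest libraries, with replicate 2 just above the lowest WT library. DUSP10 fell to 69.9% of WT in Fn14alpha KO (log2 fold change −0.52 ± 0.15 SE, edgeR adjusted p = 0.00907) and stayed called in all 18 settings, at most at an adjusted p of 0.0488. In Fn14 KO the value was 0.23 ± 0.15 SE (edgeR adjusted p = 0.191). The knockout lines differed by 0.75 ± 0.15 SE (edgeR adjusted p = 1.927e-04). With TWEAK it was 0.25 ± 0.15 SE (edgeR adjusted p = 0.333).

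DUSP14 (ENSG00000276023, chromosome 17, 37489891 to 37513501, plus strand), the atypical member, stood at 13.59, 11.58, 11.67 and 12.79 FPKM in WT and at 10.81, 10.47, 10.89 and 12.76 with TWEAK. It stood at 13.37, 15.34, 15.13 and 14.70 FPKM in Fn14alpha KO and at 21.65, 21.85, 19.61 and 18.93 in Fn14 KO. The Fn14 KO libraries lay above all others, and Fn14alpha KO overlapped WT. DUSP14 was 1.79-fold higher in Fn14 KO than in WT (log2 fold change 0.84 ± 0.08 SE, edgeR adjusted p = 5.227e-09) and 1.56-fold higher than in Fn14alpha KO (0.64 ± 0.08 SE, edgeR adjusted p = 3.327e-07). In Fn14alpha KO the value was 0.21 ± 0.08 SE (edgeR adjusted p = 0.0471). That call was lost in 9 of 18 settings, including the replicate block (adjusted p = 0.0705) and the fits without WT replicate 2 or 3 or without Fn14alpha KO replicate 2, 3 or 4 (adjusted p 0.0174 to 0.246 over all). With TWEAK the value was −0.09 ± 0.08 SE (edgeR adjusted p = 0.604).

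The summed level of the 10 genes amounted to 111.1 ± 1.39 FPKM for WT, 118.9 ± 6.35 for TWEAK, 120.2 ± 6.02 in Fn14alpha KO and 122.4 ± 1.70 in Fn14 KO (SD, n = 4 each). The nuclear class made up 52.2% of the total in WT, 53.3% with TWEAK, 58.0% in Fn14alpha KO and 56.2% in Fn14 KO. The cytoplasmic class made up 30.7%, 31.1%, 25.5% and 23.3% in the same order, and the JNK and p38 class 5.97%, 6.14%, 4.24% and 3.76%. DUSP14 alone accounted for 11.2%, 9.46%, 12.2% and 16.7%. The lower share of the cytoplasmic class in the knockout lines rested on DUSP6, since DUSP7 was higher there.

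**Figure D3:**
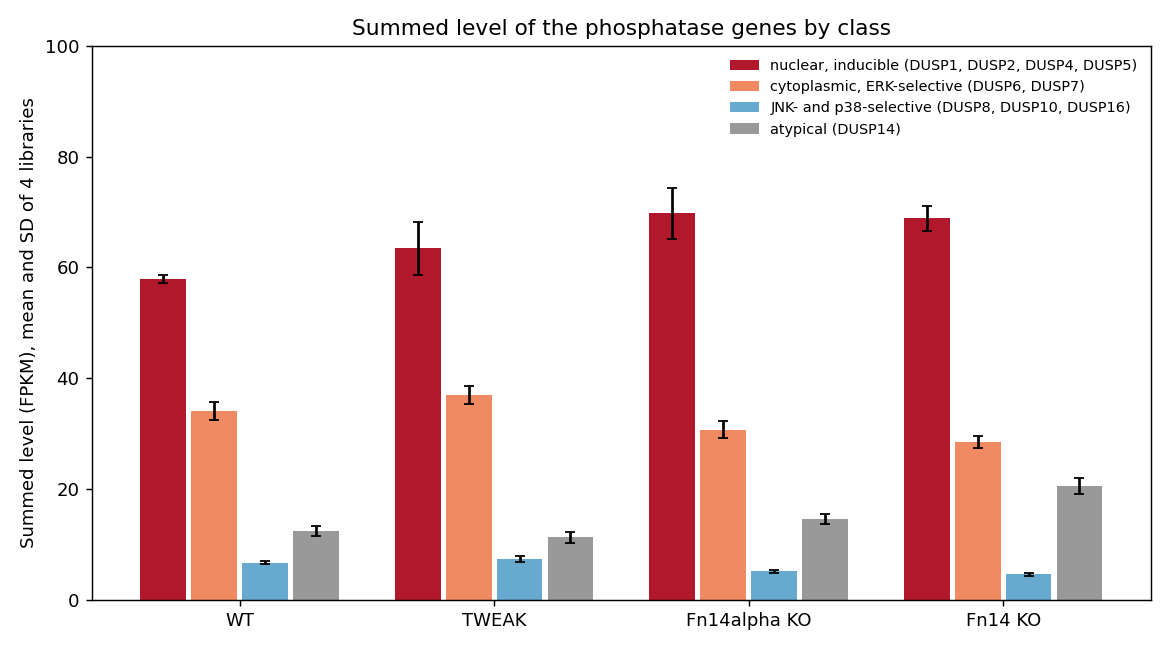
Summed FPKM (vertical axis, from 0) of the 4 classes of phosphatase genes in each group. Bars are means and error bars the SD of 4 libraries. The nuclear class is the tallest bar in every group, and the DUSP14 bar is highest in Fn14 KO at 20.5 FPKM.

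Ratios of 2 genes within a library do not depend on how the library is scaled. The pairs were not planned beforehand. Each sets a gene that was higher in the knockout lines against one that was lower, so separation there follows partly from the choice. DUSP6 and DUSP16 both lie on chromosome 12, where their neighbouring genes were lower in the knockout lines too, as described below. The ratios keep that shift. The ratio of DUSP1 to DUSP6 ran from 1.01 to 1.10 over the WT libraries, from 0.879 to 0.945 with TWEAK, from 2.13 to 2.64 in Fn14alpha KO and from 2.32 to 2.79 in Fn14 KO. The knockout lines overlapped each other in this ratio and lay apart from the unedited cells, and the TWEAK libraries lay below the WT libraries. The ratio of DUSP4 to DUSP16 was 1.06 ± 0.0811 in WT, 0.890 ± 0.0548 with TWEAK, 2.86 ± 0.318 in Fn14alpha KO and 5.48 ± 0.438 in Fn14 KO (SD, n = 4 each), and its knockout libraries did not overlap. The ratio of DUSP5 to DUSP1 was 1.11 to 1.26 in WT and 1.47 to 1.63 with TWEAK, against 0.634 to 0.750 over both knockout lines, so it moved up with TWEAK and down with either knockout. DUSP14 to DUSP16 went from 4.00 ± 0.351 in WT to 7.67 ± 0.886 in Fn14alpha KO and 15.0 ± 2.38 in Fn14 KO.

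In both knockout lines several phosphatase genes shared their difference with the genes beside them. The median log2 fold change of the 25 tested genes on each side was taken as the level of the neighbourhood. Around DUSP6 in Fn14alpha KO it was −0.62, close to the −0.64 of DUSP6 itself, and over all 853 tested genes of chromosome 12 it was −0.47. With the neighbourhood removed, DUSP6 in Fn14alpha KO was at −0.03 and was no longer called (edgeR adjusted p = 0.788). In Fn14 KO the neighbourhood of DUSP6 was at −0.17, and DUSP6 with it removed was at −0.39 and stayed called (edgeR adjusted p = 3.706e-05). With the neighbourhood removed DUSP6 was lower in Fn14 KO than in Fn14alpha KO, at −0.36 (edgeR adjusted p = 9.233e-05).

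The neighbourhood of DUSP7 was at 0.30 in Fn14alpha KO and 0.55 in Fn14 KO. With it removed, DUSP7 was at 0.20 (edgeR adjusted p = 0.0620) and −0.05 (edgeR adjusted p = 0.659), so neither call was kept. For DUSP16 the neighbourhood was at −0.46 and −0.63, and DUSP16 stayed called at −0.27 (edgeR adjusted p = 0.0302) and −0.43 (edgeR adjusted p = 7.389e-04). The difference of DUSP16 between the knockout lines was then −0.16 and not called (edgeR adjusted p = 0.185). For DUSP14 the neighbourhood was at 0.34 and 0.40. DUSP14 turned to −0.13 in Fn14alpha KO (edgeR adjusted p = 0.246) and stayed called at 0.44 in Fn14 KO (edgeR adjusted p = 1.047e-04).

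DUSP1 kept 0.50 of its 0.56 in Fn14alpha KO, where its neighbourhood was at 0.06. In Fn14 KO, where the neighbourhood was at 0.41, it went from 0.67 to 0.25 and stayed called (edgeR adjusted p = 0.00580). DUSP4 was little touched, at 0.69 in Fn14alpha KO and 1.24 in Fn14 KO with the neighbourhood removed. The neighbourhoods of DUSP8 and DUSP10 lay within 0.14 of 0 in both knockout comparisons, and their calls were kept. With TWEAK the neighbourhood medians of all 10 genes lay within 0.05 of 0. A shared shift of neighbouring genes was measured here as RNA only, and the copy number of these regions was not tested.

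**Figure D4:**
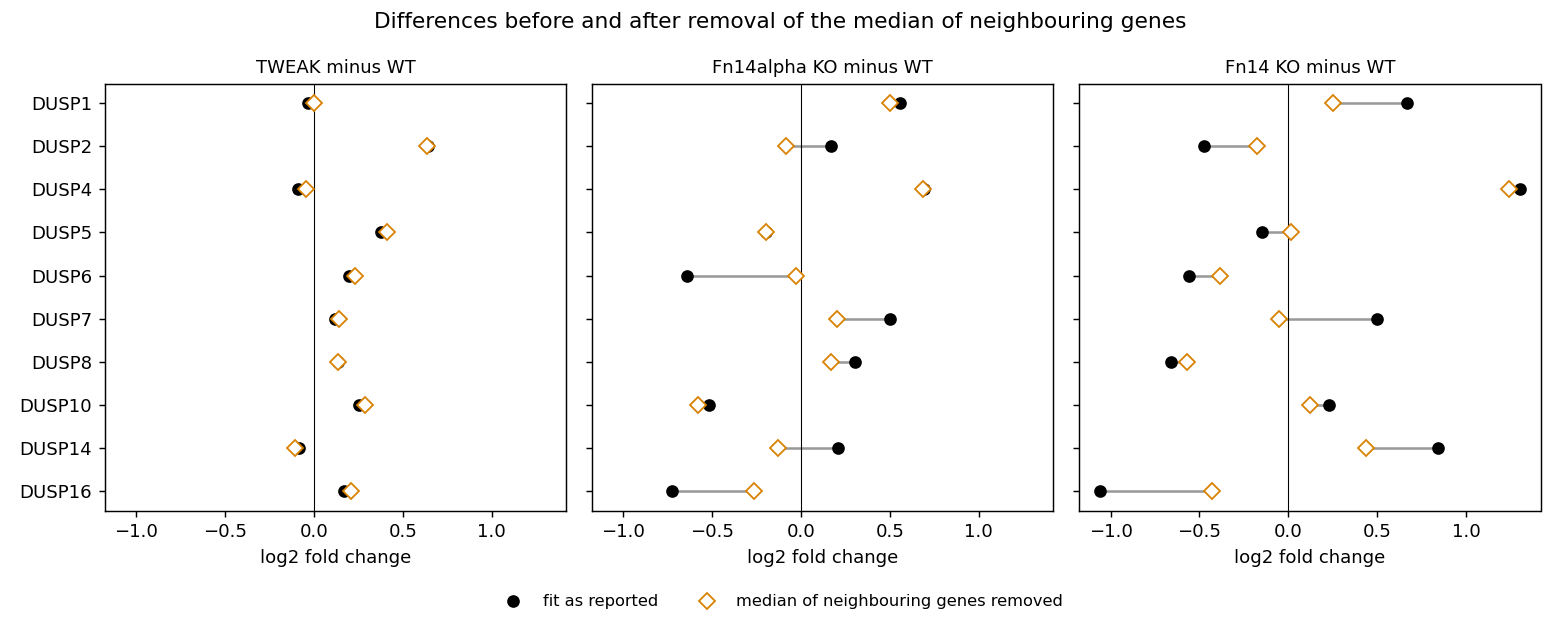
Log2 fold change of each gene against WT (horizontal axis) as fitted (black) and with the median of the 25 tested genes on each side removed (orange). DUSP6 in Fn14alpha KO moves from −0.64 to −0.03 and DUSP7 in Fn14 KO from 0.50 to −0.05, while DUSP4 and all values with TWEAK stay nearly in place.

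The other genes of the pathway were counted by the same rule, and the counts are to be read against the 6.87% of all genes called with TWEAK, 42.2% in Fn14alpha KO and 52.9% in Fn14 KO. The lists share some genes, since FOS, FOSL1, SPRY2 and SPRY4 each stand in 2 of them. Of 23 genes of the core cascade, from RAS and RAF genes to the MAP kinases, 4 rose and 1 fell with TWEAK, 6 rose and 3 fell in Fn14alpha KO, and 10 rose and 5 fell in Fn14 KO. The 9 of 23 called in Fn14alpha KO are near the share of all genes. The one with the smallest adjusted p after TWEAK was MAP2K3, an activating kinase of p38, at 30.1 ± 0.362 FPKM in WT and 45.8 ± 3.16 with TWEAK (SD, n = 4), a rise of 0.67 ± 0.07 SE on the log2 scale (edgeR adjusted p = 2.372e-07). MAP2K1, an activating kinase of ERK, also rose with TWEAK, by 0.40 ± 0.07 SE (edgeR adjusted p = 2.583e-04). The gene that fell was MAP2K6, another activating kinase of p38, at −1.03 ± 0.21 SE (edgeR adjusted p = 0.00220). Its level was low, at 0.16 FPKM in WT and 0.0725 with TWEAK. In Fn14 KO, MAP2K3 was called lower and MAP2K6 higher (edgeR adjusted p = 3.215e-09 and 5.005e-10). The median log2 fold change of the list with TWEAK was 0.10, beside −0.01 over all genes. In Fn14 KO, the RAF gene ARAF was higher by 1.01 ± 0.08 SE. MAPK8 and MAPK9, which encode JNK isoforms, were higher there by 0.77 ± 0.06 and 0.90 ± 0.07 SE. The third JNK gene, MAPK10, named after its values were seen, was at only 0.0400 FPKM in WT and was called lower in both knockout lines (edgeR adjusted p = 0.0105 in Fn14alpha KO and 0.00918 in Fn14 KO).

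Of 14 transcripts known to follow ERK activity, 4 rose and 1 fell with TWEAK, 4 rose and 5 fell in Fn14alpha KO, and 5 rose and 4 fell in Fn14 KO, so in neither knockout line did the list move in 1 direction. With limma on log2(FPKM + 1), 3 rose and 3 fell with TWEAK. With TWEAK, EPHA2, a receptor tyrosine kinase, rose by 0.77 ± 0.07 SE, and FOSL1, an AP-1 subunit, rose from 141.2 ± 17.7 to 243.8 ± 18.7 FPKM (SD, n = 4). In Fn14alpha KO, PHLDA1 was at 13.3 ± 0.129 FPKM against 34.9 ± 0.696 in WT (log2 fold change −1.43 ± 0.06 SE, edgeR adjusted p = 5.545e-15), and in Fn14 KO it was at 34.3 ± 1.895. In Fn14 KO, CCND1, which encodes cyclin D1, was at 135.7 ± 5.34 against 73.7 ± 5.05 FPKM, and ETV5, an ETS factor induced by ERK, was lower by −0.74 ± 0.06 SE.

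Of 9 tested AP-1 subunits, 4 rose with TWEAK. JUNB, which had the smallest adjusted p of them, was at 34.6 ± 2.36 FPKM in WT and 58.8 ± 2.21 with TWEAK (SD, n = 4). In Fn14alpha KO 1 rose and 1 fell, and in Fn14 KO 1 rose and 4 fell, among them JUNB at 15.1 ± 1.28 FPKM. Of 6 tested Sprouty and Spred genes, inhibitors of receptor tyrosine kinase signalling upstream of ERK, 1 rose with TWEAK (SPRED1, by 0.35 ± 0.07 SE), 1 fell in Fn14alpha KO, and 2 rose and 2 fell in Fn14 KO. There SPRY2, a feedback inhibitor often induced with DUSP6, was at 10.1 ± 0.676 FPKM against 6.21 ± 0.416 in WT, where DUSP6 was lower.

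Of 6 tested MAP kinase phosphatases of other families, edgeR called 0 with TWEAK (0 also at an unadjusted p under 0.05, with DESeq2 and with limma), 2 lower in Fn14alpha KO and 3 lower in Fn14 KO. PTPRR, a tyrosine phosphatase of ERK, was lower in both knockout lines, with log2 fold changes of −2.04 ± 0.35 and −2.03 ± 0.35 SE. Its level was low throughout, at only 0.30 FPKM in WT, 0.075 in Fn14alpha KO and 0.0675 in Fn14 KO. Of 15 tested other dual specificity phosphatases, edgeR called 0 with TWEAK, against 1 higher and 1 lower at an unadjusted p under 0.05, 0 with DESeq2 and 1 lower with limma. In Fn14alpha KO 3 of them rose and 2 fell, and in Fn14 KO 9 rose and 3 fell, beside 42.2% and 52.9% of all genes called.

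The genes whose 4 group means of log2 CPM, centred on their own mean, lay nearest to those of DUSP4 among 11487 tested genes with a mean of at least 2 log2 CPM were LINC01224, a long non-coding RNA (distance 0.0757), SLC16A14, a member of the monocarboxylate transporter family (0.0861), and FAM171A2 (0.0869). SLC16A14 went from 6.47 FPKM in WT to 5.58 with TWEAK, 10.045 in Fn14alpha KO and 13.6 in Fn14 KO. The nearest to DUSP6 were M6PR, a mannose 6-phosphate receptor gene that also lies on chromosome 12 (0.0921), BBS12 (0.0955) and ABR (0.101). With 4 group means and many genes, such closeness is a description of these libraries.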

How the data were processed

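Poly(A) RNA of 16 LX-2 libraries was read from 1 deposited table, which holds gene counts, FPKM and exonic sizes made by the authors, per the file headers. The submitters' processing notes name HISAT2 2.0.1 and HTSeq 0.6.1 beside FastQC 0.10.1, cutadapt 1.9.1, DESeq2 and the builds GRCh38.p13 and hg38. The deposited FPKM equalled count per exonic length and library total within 0.735% for values of at least 500 counts. A strand setting of the counting is not given in the sources at hand, and genes that overlap DUSP1, DUSP6, DUSP8 and DUSP16 on the opposite strand had at most 9 counts per library.

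Counts were tested in R 4.3.3 with edgeR 4.0.16 (TMM, filterByExpr, robust quasi-likelihood fit of all 16 libraries, 1 mean per group, two-sided tests, 95% intervals). Alternatives were DESeq2 1.42.0, limma 3.58.1 on log2(FPKM + 1) and log2(FPKM + 0.1), other scaling, no filter, a replicate block, removal of the median of 25 tested genes on each side, only the 2 groups compared, and leaving out libraries. The edgeR script was tested on simulated data. Named genes were all 10 members, TNFRSF12A and, for each list and comparison, up to 3 called genes with the smallest adjusted p, plus the 3 nearest genes of DUSP4 and DUSP6. Some list genes, such as MAP2K3 and MAP2K6, were also given in a comparison other than the one that named them. MAPK10 and single marker genes were added after their values were seen. The members and lists were chosen with earlier results of these data known. The rule for promoters covered members called with TWEAK, which is DUSP5, so the 3 promoters shown fall outside it. Promoter entries for DUSP4 and DUSP5 and protein sequences were not used here.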

Additional observations from a re-analysis of the deposited data

Results flagged for a closer look

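The DUSP10 level with TWEAK had a library apart from the rest: replicate 2 was at 2.14 FPKM and the others at 2.81 to 2.92, a gap of 0.859 of the range of the group. Chance alone would single out about 1 in 20 groups, and 40 groups of 4 libraries were examined. DUSP8 and DUSP10 had differences from WT of opposite sign in the knockout lines, and the difference itself was tested. DUSP8 was at 0.30 in Fn14alpha KO (not called) and at −0.66 in Fn14 KO (called), a log2 difference of −0.96 between them (edgeR adjusted p = 1.696e-06). DUSP10 was at −0.52 in Fn14alpha KO (called) and at 0.23 in Fn14 KO (not called), a log2 difference of 0.75 (edgeR adjusted p = 1.927e-04).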

How the results depend on the processing

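Of 40 differences (10 genes in 4 comparisons), 25 kept their direction and their side of the threshold in all 18 settings, and 15 of the 21 calls were kept in all. With the median of neighbouring genes removed, 2 genes were called higher with TWEAK, 2 higher in Fn14alpha KO and 4 lower in Fn14 KO than in Fn14alpha KO. Under that setting DUSP2 and DUSP14 turned to −0.0878 and −0.13 in Fn14alpha KO, and DUSP5 and DUSP7 to 0.0178 and −0.0496 in Fn14 KO. Between the knockout lines DUSP1 and DUSP6 turned to −0.25 and −0.36 and became called (edgeR adjusted p = 0.00532 and 9.233e-05). DUSP5 (0.21) and DUSP7 (−0.25) became called there as well. DUSP6 was added to DUSP5 as higher with TWEAK in DESeq2 (2 genes) and without WT replicate 4 and Fn14 KO replicate 1 (2 genes).

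Between the knockout lines, DUSP1, DUSP5 and DUSP6 turned to −0.0429, −0.103 and −0.0644 on total counts, to −0.0375, −0.0983 and −0.0615 with limma on log2(FPKM + 1), and to −0.0383, −0.102 and −0.0653 with limma on log2(FPKM + 0.1). On total counts the median of all genes shifted to −0.12 in Fn14 KO against WT and −0.15 between the knockout lines. The share of called genes that were higher went from 70.2% to 43.9% with TWEAK, from 50.2% to 36.0% in Fn14 KO and from 51.9% to 37.3% between the lines. DUSP7 between the lines was at 0.0101 without the low-count filter and 0.0290 without WT replicate 4 and Fn14 KO replicate 1. Leaving out single libraries gave −0.0651 to 0.00824 for DUSP1 with TWEAK, −0.12 to 0.55 for DUSP2 in Fn14alpha KO and −0.0372 to 0.0291 for DUSP7 between the lines, with 1 gene higher with TWEAK throughout.

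With a replicate block, DUSP14 in Fn14alpha KO was at 0.21 and not called (adjusted p = 0.0705), and no other call among the 10 genes changed. Genes called with TWEAK numbered 893 under the block, against 1101. The replicate numbers did not pair the libraries, since correlations of same-numbered libraries ran from −0.23 to 0.11. With 4 libraries per group, the counts of DUSP2 limit what can be seen of it.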

Other observations

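DUSP9, an ERK-selective cytoplasmic phosphatase of the same class as DUSP6 and DUSP7 that is known mainly from placenta and kidney, was not among the 10 genes but differed more than any of them in both knockout lines. It ran from 1.30 to 1.9 FPKM in WT, from 1.11 to 1.44 with TWEAK, from 2.81 to 3.60 in Fn14alpha KO and from 0.08 to 0.18 in Fn14 KO. The WT, Fn14alpha KO and Fn14 KO libraries did not overlap. Its log2 fold change against WT was 1.08 ± 0.15 SE in Fn14alpha KO (edgeR adjusted p = 2.259e-06) and −3.44 ± 0.25 SE in Fn14 KO (edgeR adjusted p = 3.143e-11). DUSP9 lies on the X chromosome, and after removal of the median of its neighbours these values were 1.69 and −3.46.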
